A study of Arabidopsis thaliana with 8 samples.

Results

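The 41 genes described here encode the nuclear enzymes of carbon fixation and of photorespiration in Arabidopsis thaliana: the small subunits of RuBisCO and RuBisCO activase, the enzymes of the Calvin-Benson cycle, the CP12 proteins and the photorespiratory enzymes of plastid, peroxisome and mitochondrion. They were taken by gene ID from the 18855 genes in the deposited expression values, and all 41 IDs were present. The names used are common ones for these IDs, and the files themselves carry a name for 37 of the 41. RNA-seq of whole seedlings, 12 days old and untreated, covered 8 samples of 3 genotypes. These were WT (n = 2), the transgenic 35S:SPCHΔ49 (n = 3) and 35S:SPCHΔ49 carried in the basl-2 mutant (n = 3), called SPCHΔ49 and SPCHΔ49 basl-2 below. The study compared plants with an excess of stomatal lineage cells with the wild type. SPCH is the transcription factor that starts the stomatal lineage. SPCHΔ49 is a shortened form that escapes the MAPK phosphorylation that leads to SPCH degradation, and 35S is a promoter active in most plant tissues. BASL is a polarity protein of asymmetrically dividing stomatal precursors. Both transgenic groups carry the transgene and there was no basl-2 group without it, so the mutation was compared only within the overexpressors. The labels do not say how many transgenic lines were used, nor that the replicates were grown separately, so the p-values measure the spread between these samples, which may be technical.

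In the Calvin-Benson cycle, RuBisCO joins carbon dioxide to ribulose bisphosphate, the product is reduced to triose phosphate, and most of that is used to regenerate the acceptor. RuBisCO also takes oxygen in place of carbon dioxide, which yields phosphoglycolate. Photorespiration salvages this product through the plastid, the peroxisome and the mitochondrion, where glycine decarboxylase cleaves glycine, releasing carbon dioxide and ammonia, and serine hydroxymethyltransferase forms serine from the carbon unit passed to folate and another glycine. In leaves these enzymes are made mainly in green mesophyll cells and their genes are among the most strongly expressed of the nuclear genome.

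The stretches upstream of 3 members are shown because they hold light-associated letters that were searched for, the G-box (CACGTG) and the I-box (GATAAG). RBCS2B and HCEF1 are the 2 members that hold both in the window searched. GLDP1 is the member with the largest decrease against WT. Each is the 250 bases before the annotated gene start in the RefSeq annotation of TAIR10.1, written 5′ to 3′ on the strand of the gene, with capitals marking both boxes on either strand (CTTATC is the I-box on the other strand). The authors' own build is not stated by the sources at hand, and their files hold no coordinates.
RBCS2B promoter, chr5:15382072-15382321, minus strand: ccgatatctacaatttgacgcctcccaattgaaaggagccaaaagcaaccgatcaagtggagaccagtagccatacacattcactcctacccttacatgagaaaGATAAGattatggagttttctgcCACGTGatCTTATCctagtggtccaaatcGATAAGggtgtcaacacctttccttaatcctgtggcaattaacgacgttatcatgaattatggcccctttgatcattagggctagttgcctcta
HCEF1 promoter, chr3:20016587-20016836, plus strand: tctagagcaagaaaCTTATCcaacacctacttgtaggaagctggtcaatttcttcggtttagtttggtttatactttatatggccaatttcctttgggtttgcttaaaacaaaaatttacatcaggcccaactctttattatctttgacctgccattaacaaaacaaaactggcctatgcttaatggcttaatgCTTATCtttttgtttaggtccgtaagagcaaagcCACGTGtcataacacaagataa
GLDP1 promoter, chr4:15931423-15931672, minus strand: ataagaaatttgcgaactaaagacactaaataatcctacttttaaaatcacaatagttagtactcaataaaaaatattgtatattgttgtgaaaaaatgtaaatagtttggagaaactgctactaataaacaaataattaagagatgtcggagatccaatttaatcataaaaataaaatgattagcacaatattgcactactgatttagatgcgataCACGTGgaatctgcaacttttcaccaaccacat
The RBCS2B stretch holds 1 G-box between I-boxes, and HCEF1 holds 1 G-box and 2 I-boxes. Over the 41 members, the G-box was found in 7 (RBCS2B, HCEF1, TKL2, PRK, GGT1, GGT2 and GLDP1), against 7.44% of 18752 listed genes with such a stretch. The I-box was found in 6 members (RBCS2B, RCA, HCEF1, CP12-2, CP12-3 and GLDP2), against 12.6% of the listed genes. The evening element (AAAATATCT) was in 0 members and 2.47% of the listed genes, and the telo-box (AAACCCTA) in 1 member, GDCH1, and 3.57% of the listed genes. Both strands were searched, and the letters of these motifs do not contain one another. A match describes the letters of the window and does not show a factor bound there. Absence of a match holds for this window only, since letters past the annotated gene start or further upstream were not searched. The RBCS1B window, for example, ends within letters that in RBCS2B run into its first I-box.

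Expression was read as the deposited signal, which the files name TPM, a value scaled for gene length and for the library. The summed signal was 1008090 and 1010960 for WT, 852202 to 953620 for SPCHΔ49, and 959355 to 1075380 for SPCHΔ49 basl-2. Counts were not analysed here, so the depth behind each value is unknown. The SPCH signal, transgene and native gene together, was 6.92 ± 1.80 in WT (SD, n = 2), 2491 ± 136 in SPCHΔ49 (SD, n = 3) and 407 ± 74.9 in SPCHΔ49 basl-2 (SD, n = 3), so the transgenic groups differ in SPCH signal as well as in BASL. BASL had 3.34 and 3.52 for WT, 35.3 to 59.7 for SPCHΔ49, and 2.1 to 3.23 for SPCHΔ49 basl-2. Markers of some other tissues moved with the genotypes. By the limma fit described below, 17.3% of all genes were called lower and 9.9% higher in SPCHΔ49. The shares in SPCHΔ49 basl-2 were 21.6% lower and 12.6% higher. Of 11 root markers, 11 were lower in SPCHΔ49 and 10 in SPCHΔ49 basl-2 than in WT, CASP2 being the exception. Their summed signal was 279.6 to 281.7 in WT, 3.54 to 3.88 in SPCHΔ49 and 7.29 to 16.7 in SPCHΔ49 basl-2, with EXPA18 listed at 0 in all 6 overexpressor samples and EXPA7 in 5 of them. Of 8 guard cell markers, 6 were higher in SPCHΔ49 (KAT1 and TGG1 were not called) and 8 in SPCHΔ49 basl-2, with sums of 849 to 868 in WT, 1139 to 1329 in SPCHΔ49 and 1460 to 1798 in SPCHΔ49 basl-2. Of 8 vascular markers, 4 were lower and 0 higher in SPCHΔ49, and 4 were lower and 1 higher in SPCHΔ49 basl-2, with sums of 256 to 267, 155 to 183 and 180 to 231 in the same order. Of 5 epidermis markers, 1 rose and 1 fell in SPCHΔ49 and 1 fell in SPCHΔ49 basl-2, with sums of 759 to 788, 894 to 1165 and 627 to 757. These epidermis counts are near the shares over all genes and are no result about that tissue. The part of these tissues in the results below was not tested. In whole seedlings, fewer cells of a type and less RNA per cell cannot be told apart.

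Most of the carbon fixation and photorespiration genes were lower in SPCHΔ49 than in WT, and fewer were lower in SPCHΔ49 basl-2. In SPCHΔ49, 32 of the 41 members were lower and 0 higher by limma on log2(signal + 1) with an adjusted p under 0.05, against 17.3% of all 18855 genes called lower and 9.9% called higher (27.2% in either direction). In SPCHΔ49 basl-2, 23 members were lower and 1, AGT1, was higher, against a background of 21.6% lower and 12.6% higher (34.3% in either direction). The median log2 fold change of the members was -1.01 in SPCHΔ49 and -0.68 in SPCHΔ49 basl-2, where the medians over all genes were -0.010 and -0.055. The samples of the groups did not overlap, with WT the higher, for 36 members in SPCHΔ49 and 28 in SPCHΔ49 basl-2, against 32.7% and 35.5% of all genes. The reverse, with WT the lower, held for 1 and 4 members, against 28.2% and 26.5% of all genes. WT is shared by both comparisons, so their counts are not independent of each other. Leaving out 1 WT sample lowered the counts. It leaves a lone WT sample that is assumed to vary like the other groups. It also takes the spread of the WT pair out of the variance estimate that the 3 genotypes share. Calls between the overexpressors, a comparison without WT samples, were fewer as well, and the reason was not tested. The SPCHΔ49 count was then 16 without WT replicate 1 and 17 without WT replicate 2, and the SPCHΔ49 basl-2 count was 8 without either.

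**Figure D1:**
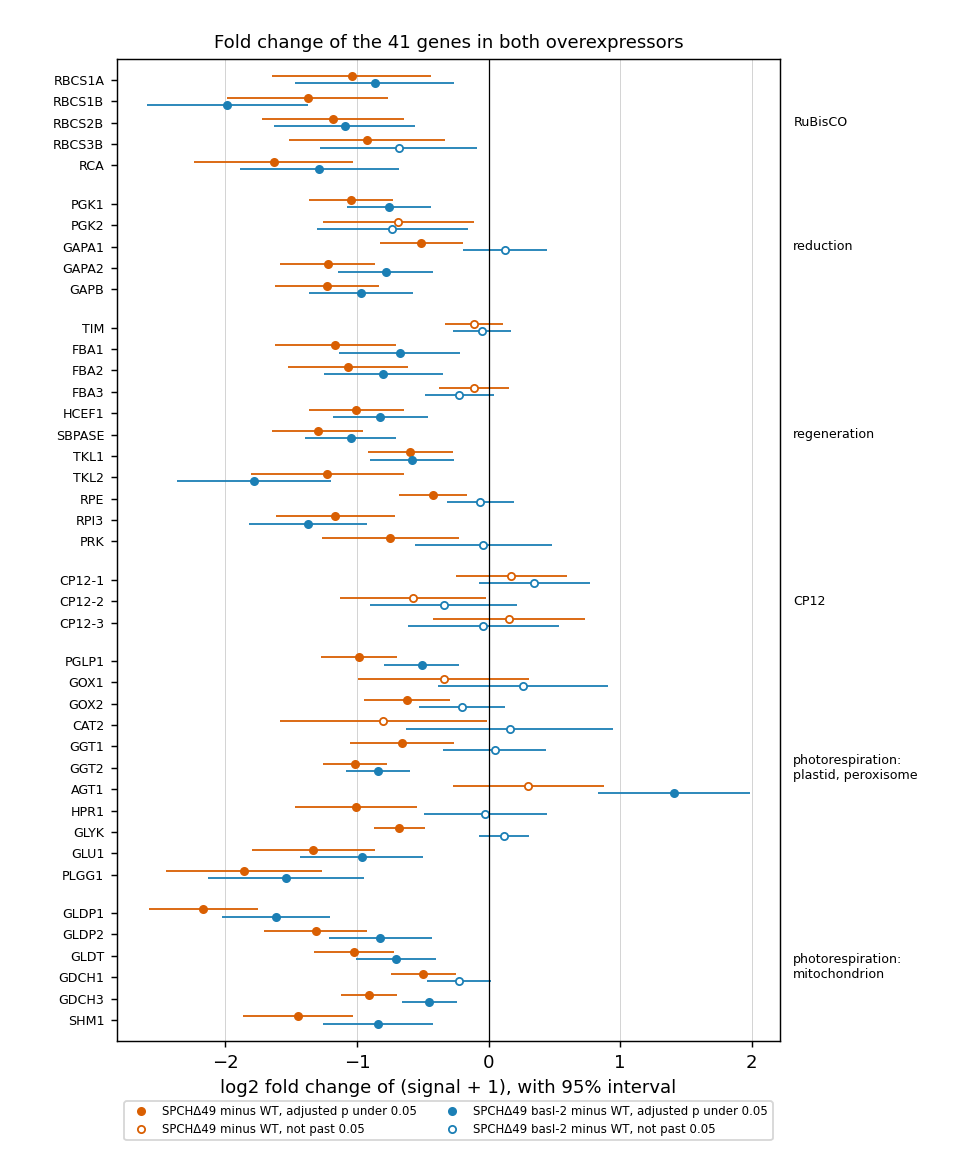
Log2 fold change of (signal + 1) against WT for the 41 genes, ordered by role, in SPCHΔ49 (orange) and SPCHΔ49 basl-2 (blue). Horizontal lines are 95% intervals of the limma fit, filled points have an adjusted p under 0.05 and open points do not. In SPCHΔ49, 38 of the 41 points lie below 0, and the blue points of GAPA1, PRK, GGT1, HPR1 and GLYK lie near 0 where the orange ones lie below it.

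The RuBisCO genes, that is the 4 small subunit genes and the activase gene, were all lower in SPCHΔ49, and 4 of the 5 were lower in SPCHΔ49 basl-2. RBCS1A (AT1G67090), the most strongly expressed small subunit gene and rank 2 of the 18855 genes in WT, had a signal of 19447 and 18810 for WT, 10325, 8497 and 9143 for SPCHΔ49, and 10290, 8874 and 12700 for SPCHΔ49 basl-2. No overexpressor sample reached either WT sample, and the 2 overexpressor groups overlapped. Its log2 fold change was -1.04 (95% interval -1.65 to -0.44, adjusted p = 0.0235) in SPCHΔ49 and -0.86 (-1.47 to -0.26, adjusted p = 0.0378) in SPCHΔ49 basl-2. RBCS1B (AT5G38430), the least expressed of the 4, had 1952 and 1563 for WT, 634, 703 and 686 for SPCHΔ49, and 506, 302 and 560 for SPCHΔ49 basl-2. It was the member with the largest decrease in SPCHΔ49 basl-2, with a log2 fold change of -1.98 (adjusted p = 0.00168) against -1.37 (adjusted p = 0.00851) in SPCHΔ49, and its 3 groups did not overlap. The difference between the overexpressors, -0.61 (-1.16 to -0.06), had an adjusted p of 0.184 and was not called. RBCS2B (AT5G38420) fell by 1.18 and by 1.09 on the log2 scale (adjusted p = 0.00925 and 0.0107). RBCS3B (AT5G38410) fell by 0.92 in SPCHΔ49 (adjusted p = 0.0338), while its log2 fold change of -0.68 in SPCHΔ49 basl-2 had an adjusted p of 0.0743. RCA (AT2G39730), the activase that frees RuBisCO of inhibitory sugar phosphates, had 7465 and 7185 for WT, 2724, 2310 and 2090 for SPCHΔ49, and 3293, 2188 and 3747 for SPCHΔ49 basl-2. All overexpressor samples lay below both WT samples, with log2 fold changes of -1.63 (adjusted p = 0.00396) and -1.29 (adjusted p = 0.00903). Of the SPCHΔ49 calls, that of RCA held without any single library. The 4 small subunit calls were lost without either WT replicate, that of RBCS1A also without SPCHΔ49 replicate 2, and that of RBCS3B also without SPCHΔ49 replicate 2 or 3 or SPCHΔ49 basl-2 replicate 1 (highest adjusted p 0.106 for RBCS1A, 0.0925 for RBCS1B, 0.0804 for RBCS2B and 0.157 for RBCS3B). RBCS3B was not called in SPCHΔ49 under quantile normalization (adjusted p = 0.132) or when libraries were rescaled without SPCH, organelle and abundant genes (0.0542), and was called in SPCHΔ49 basl-2 under 5 alternatives, namely quantile normalization, a mean of at least 5, no intensity trend, robust variances and both overexpressor samples numbered 3 left out (adjusted p = 0.0328, 0.0409, 0.037, 0.042 and 0.0459). In SPCHΔ49 basl-2 the call of RBCS1B held without any single library, and RBCS1A, RBCS2B and RCA lost theirs without either WT replicate (highest adjusted p 0.130, 0.0794 and 0.0707). The RBCS1A call there was also lost without SPCHΔ49 replicate 2 or SPCHΔ49 basl-2 replicate 1 or 2, and with WT and SPCHΔ49 basl-2 alone in the fit (adjusted p = 0.0775). RBCL, the large subunit encoded in the plastid, had 120.5 and 111.2 in WT and 39.7 to 147.5 over the overexpressors, and was not called in either (adjusted p = 0.657 and 0.322).

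The coding sequences of the 4 small subunit genes are close enough that reads can match more than 1 of them, so the split of signal among them is uncertain and their sum is firmer. RBCS1B, RBCS2B and RBCS3B, which lie beside each other on chromosome 5, share 96.7% to 97.3% of aligned coding bases, and RBCS1A, on chromosome 1, shares 90.4% to 90.6% with them. The same 120 aligned coding bases, from base 181 of the RefSeq coding sequence, are shown for the 4 genes, with capitals where a base differs from RBCS2B.
RBCS2B: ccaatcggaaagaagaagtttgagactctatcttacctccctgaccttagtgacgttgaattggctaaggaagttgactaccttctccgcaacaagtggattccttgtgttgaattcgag
RBCS1B: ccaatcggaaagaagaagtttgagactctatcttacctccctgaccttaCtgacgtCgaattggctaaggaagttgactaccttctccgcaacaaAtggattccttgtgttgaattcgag
RBCS3B: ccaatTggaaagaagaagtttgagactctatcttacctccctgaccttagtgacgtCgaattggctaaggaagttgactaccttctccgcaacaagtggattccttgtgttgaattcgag
RBCS1A: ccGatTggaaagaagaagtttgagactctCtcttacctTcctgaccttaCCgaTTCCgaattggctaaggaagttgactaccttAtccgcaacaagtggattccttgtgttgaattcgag
In this stretch RBCS1B differs from RBCS2B at 3 bases, RBCS3B at 2 and RBCS1A at 11. The summed small subunit signal was 34827 and 36516 for WT, 16047 to 20140 for SPCHΔ49, and 16168 to 22942 for SPCHΔ49 basl-2, or 49.0% and 55.2% of the WT mean. RBCS1A made up 53.6% ± 0.53 of it in WT (SD, n = 2), 53.5% ± 2.48 in SPCHΔ49 (SD, n = 3) and 54.0% ± 2.0 in SPCHΔ49 basl-2 (SD, n = 3). The differences from WT, -0.18 and 0.34 percentage points, were smaller than the spread between replicates.

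In the reductive steps, 4 of 5 genes were lower in SPCHΔ49 and 3 of 5 in SPCHΔ49 basl-2. GAPA1 (AT3G26650) and GAPA2 (AT1G12900) encode the A subunit and GAPB (AT1G42970) the B subunit of plastid glyceraldehyde-3-phosphate dehydrogenase, which reduces bisphosphoglycerate. GAPA1 had 1353 and 1350 for WT, 1077, 930 and 852 for SPCHΔ49, and 1549, 1414 and 1469 for SPCHΔ49 basl-2, so the SPCHΔ49 samples lay below both WT samples and the SPCHΔ49 basl-2 samples above both. Its log2 fold change was -0.51 (adjusted p = 0.0297) in SPCHΔ49 and 0.13 (-0.19 to 0.44, adjusted p = 0.499; -0.09 under quantile normalization) in SPCHΔ49 basl-2. GAPA2 fell by 1.22 and 0.78 (adjusted p = 0.0014 and 0.00852) and GAPB by 1.23 and 0.97 on the log2 scale (adjusted p = 0.00212 and 0.00526). PGK1 (AT3G12780), a phosphoglycerate kinase, fell by 1.04 and 0.76 (adjusted p = 0.00172 and 0.00621). For PGK2 (AT1G56190), also a phosphoglycerate kinase, the log2 fold changes of -0.69 and -0.73 had adjusted p-values of 0.0765 and 0.0543 and were not called, though no overexpressor sample overlapped WT. The calls of GAPA2, GAPB and PGK1 in SPCHΔ49 held without any single library. That of GAPA1 did not hold without either WT replicate, SPCHΔ49 replicates 2 or 3, or SPCHΔ49 basl-2 replicate 1 (highest adjusted p 0.157), nor under rescaling (adjusted p = 0.0767) or without both overexpressor samples numbered 3 (0.0544). PGK2 was called lower in SPCHΔ49 with WT and SPCHΔ49 alone in the fit (adjusted p = 0.0154) or without SPCHΔ49 basl-2 replicate 2 or 3 (0.0274 and 0.0203), and in SPCHΔ49 basl-2 without its replicate 3 (log2 fold change -0.96, adjusted p = 0.00776). In SPCHΔ49 basl-2 the calls of GAPA2 and GAPB were lost without either WT replicate and that of PGK1 without WT replicate 2 (highest adjusted p 0.0755, 0.0552 and 0.0675).

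The share of each gene within this enzyme was also followed. GAPB made up 35.3% and 35.6% of the summed signal of GAPA1, GAPA2 and GAPB for WT, 28.0%, 29.3% and 28.0% for SPCHΔ49, and 23.5%, 21.4% and 27.7% for SPCHΔ49 basl-2. All 3 groups were separate, with differences from WT of -7.03 and -11.3 percentage points. A two-sided exact permutation test gave p = 0.2 for each against WT and p = 0.1 between the overexpressors, which are the smallest values that 2 against 3 and 3 against 3 samples allow. The share of GAPA1 was 38.0% ± 0.75 in WT (SD, n = 2), 50.2% ± 1.45 in SPCHΔ49 (SD, n = 3) and 55.2% ± 0.60 in SPCHΔ49 basl-2 (SD, n = 3). In the aldolase family, FBA2 (AT4G38970) made up 69.8% ± 1.61 in WT (SD, n = 2), 68.2% ± 1.35 in SPCHΔ49 (SD, n = 3) and 66.7% ± 2.48 in SPCHΔ49 basl-2 (SD, n = 3), with overlapping samples and an exact permutation p of 0.4 for each difference.

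**Figure D2:**
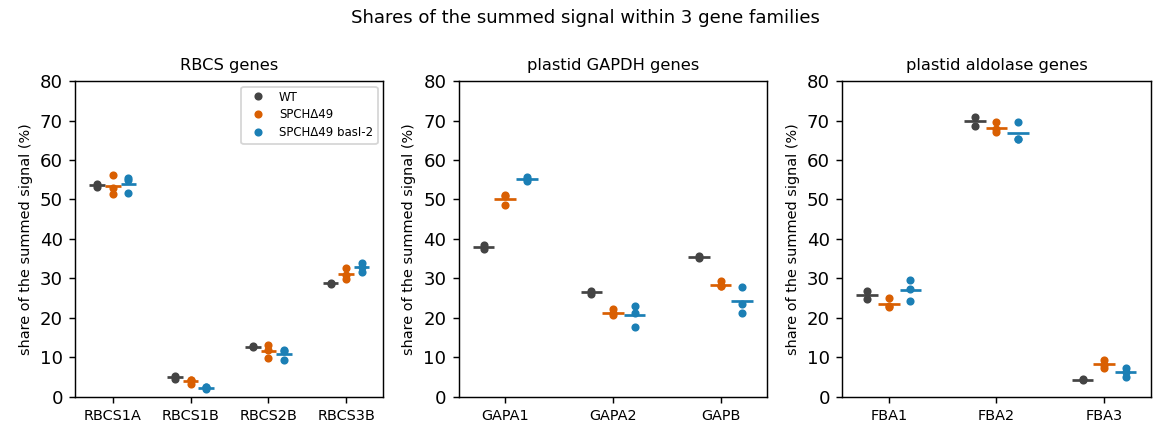
Share of each gene (%) in the summed signal of its family, for the 4 RBCS genes, the 3 plastid GAPDH genes and the 3 plastid aldolase genes. Points are samples, short lines are group means, and colours give the genotype. The RBCS1A share stays near 54% in the 3 groups, while the GAPB share is 35.5% in WT, 28.4% in SPCHΔ49 and 24.2% in SPCHΔ49 basl-2.

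Among the enzymes that regenerate the acceptor, 9 of 11 were lower in SPCHΔ49 and 7 of 11 in SPCHΔ49 basl-2. SBPASE (AT3G55800), the sedoheptulose bisphosphatase, had 458 and 469 for WT, 203, 188 and 173 for SPCHΔ49, and 227, 188 and 261 for SPCHΔ49 basl-2. Every overexpressor sample was below both WT samples, and the log2 fold changes of -1.30 (adjusted p = 0.000879) and -1.05 (adjusted p = 0.00223) held without any single library. HCEF1 (AT3G54050), the plastid fructose-1,6-bisphosphatase, fell by 1.01 and 0.82 (adjusted p = 0.00353 and 0.0071). The plastid aldolases FBA1 (AT2G21330) and FBA2, which condense triose and tetrose phosphates, fell by 1.17 and 1.07 in SPCHΔ49 (adjusted p = 0.00518 and 0.00705) and by 0.68 and 0.80 in SPCHΔ49 basl-2 (adjusted p = 0.0344 and 0.0182). TKL1 (AT3G60750), a transketolase, fell by 0.59 and 0.58 (adjusted p = 0.0181 and 0.0165). RPI3 (AT3G04790), a ribose-5-phosphate isomerase, had 316 and 242 for WT, 108, 132 and 130 for SPCHΔ49, and 102, 89.9 and 131 for SPCHΔ49 basl-2. Its log2 fold changes were -1.17 (adjusted p = 0.00486) and -1.37 (adjusted p = 0.00224). TKL2 (AT2G45290) is the weakly expressed transketolase, with 16.0 in both WT samples, 5.33, 5.91 and 7.79 for SPCHΔ49, and 3.96, 2.71 and 5.58 for SPCHΔ49 basl-2. It fell by 1.22 (adjusted p = 0.0114) and 1.78 (adjusted p = 0.00221) on the log2 scale, and the added 1 makes the fold change of so low a gene smaller.

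PRK (AT1G32060) and RPE (AT5G61410) were lower in SPCHΔ49 and not called in SPCHΔ49 basl-2, and TIM (AT2G21170) and FBA3 (AT2G01140) were not called in either. PRK, the phosphoribulokinase that forms the acceptor of carbon dioxide, had 742 and 752 for WT, 541, 460 and 353 for SPCHΔ49, and 830, 801 and 576 for SPCHΔ49 basl-2. The SPCHΔ49 samples were below all others, while the SPCHΔ49 basl-2 samples lay on both sides of WT. Its log2 fold change was -0.75 (-1.27 to -0.22, adjusted p = 0.0443) in SPCHΔ49 and -0.04 (-0.56 to 0.48, adjusted p = 0.905; 0.02 under rescaling) in SPCHΔ49 basl-2, and the difference between the overexpressors, 0.71 (0.24 to 1.17), was not called (adjusted p = 0.0911). RPE, the epimerase that supplies ribulose phosphate, fell by 0.42 in SPCHΔ49 (adjusted p = 0.028) and had a log2 fold change of -0.06 (-0.32 to 0.19, adjusted p = 0.688; 0.03 under quantile normalization) in SPCHΔ49 basl-2. TIM, the plastid triose phosphate isomerase, had 546 and 545 for WT, 484 to 523 for SPCHΔ49, and 504 to 550 for SPCHΔ49 basl-2, with log2 fold changes of -0.11 (-0.33 to 0.11) and -0.05 (-0.27 to 0.17). FBA3, another plastid aldolase, had log2 fold changes of -0.11 (-0.37 to 0.15) and -0.22 (-0.49 to 0.04), and neither gene was called. Under quantile normalization the SPCHΔ49 values of TIM and FBA3 were 0.17 and 0.11. The SPCHΔ49 calls of PRK and RPE were lost without any of WT replicates 1 and 2 and SPCHΔ49 replicates 2 and 3, and that of PRK also without SPCHΔ49 basl-2 replicate 1 or 2 (highest adjusted p 0.195 and 0.162). Both were also lost under this rescaling (adjusted p = 0.0716 for PRK and 0.102 for RPE), and that of RPE also under quantile normalization (0.298) and without both overexpressor samples numbered 3 (0.0596). The TKL1 call in SPCHΔ49 was lost under quantile normalization (adjusted p = 0.139) and rescaling (0.0538). Of the other regeneration calls in SPCHΔ49, those of FBA1, TKL1 and TKL2 were lost without either WT replicate, those of FBA2 and RPI3 without WT replicate 1, that of HCEF1 without WT replicate 2, and that of TKL1 also without SPCHΔ49 replicate 1 or 2. The highest adjusted p was 0.0635 for FBA1, 0.0782 for FBA2, 0.0510 for HCEF1, 0.125 for TKL1, 0.0908 for TKL2 and 0.0666 for RPI3. The SPCHΔ49 basl-2 calls of TKL2 and RPI3 held without any single library. Those of FBA1, FBA2, HCEF1 and TKL1 were lost without either WT replicate, and that of FBA1 also without SPCHΔ49 replicate 2 or SPCHΔ49 basl-2 replicate 2 or 3 (highest adjusted p 0.174, 0.129, 0.0661 and 0.107).

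None of the 3 CP12 genes was called in either overexpressor by the limma fit. CP12 proteins bind phosphoribulokinase and glyceraldehyde-3-phosphate dehydrogenase in an inactive complex in the dark. CP12-1 (AT2G47400) had 1871 and 1700 for WT, 2194, 2033 and 1823 for SPCHΔ49, and 2409, 2569 and 1883 for SPCHΔ49 basl-2. The SPCHΔ49 samples overlapped WT and the SPCHΔ49 basl-2 samples lay above it. Its log2 fold changes were 0.17 (-0.25 to 0.59, adjusted p = 0.509) and 0.35 (-0.08 to 0.77, adjusted p = 0.174). For CP12-2 (AT3G62410) they were -0.57 (-1.13 to -0.02, adjusted p = 0.116) and -0.34 (-0.90 to 0.22, adjusted p = 0.298), and for CP12-3 (AT1G76560) 0.16 (-0.42 to 0.73, adjusted p = 0.671) and -0.04 (-0.61 to 0.54, adjusted p = 0.914). The ratio of CP12-1 to PRK signal was 2.52 and 2.26 for WT, 4.05, 4.42 and 5.17 for SPCHΔ49, and 2.90, 3.21 and 3.27 for SPCHΔ49 basl-2, so the 3 groups were separate in this ratio. CP12-1 was called higher in SPCHΔ49 under quantile normalization (log2 fold change 0.38, adjusted p = 0.0374), and CP12-2 lower with WT and SPCHΔ49 alone in the fit (adjusted p = 0.0368) or without SPCHΔ49 basl-2 replicate 2 (0.0399).

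**Figure D3:**
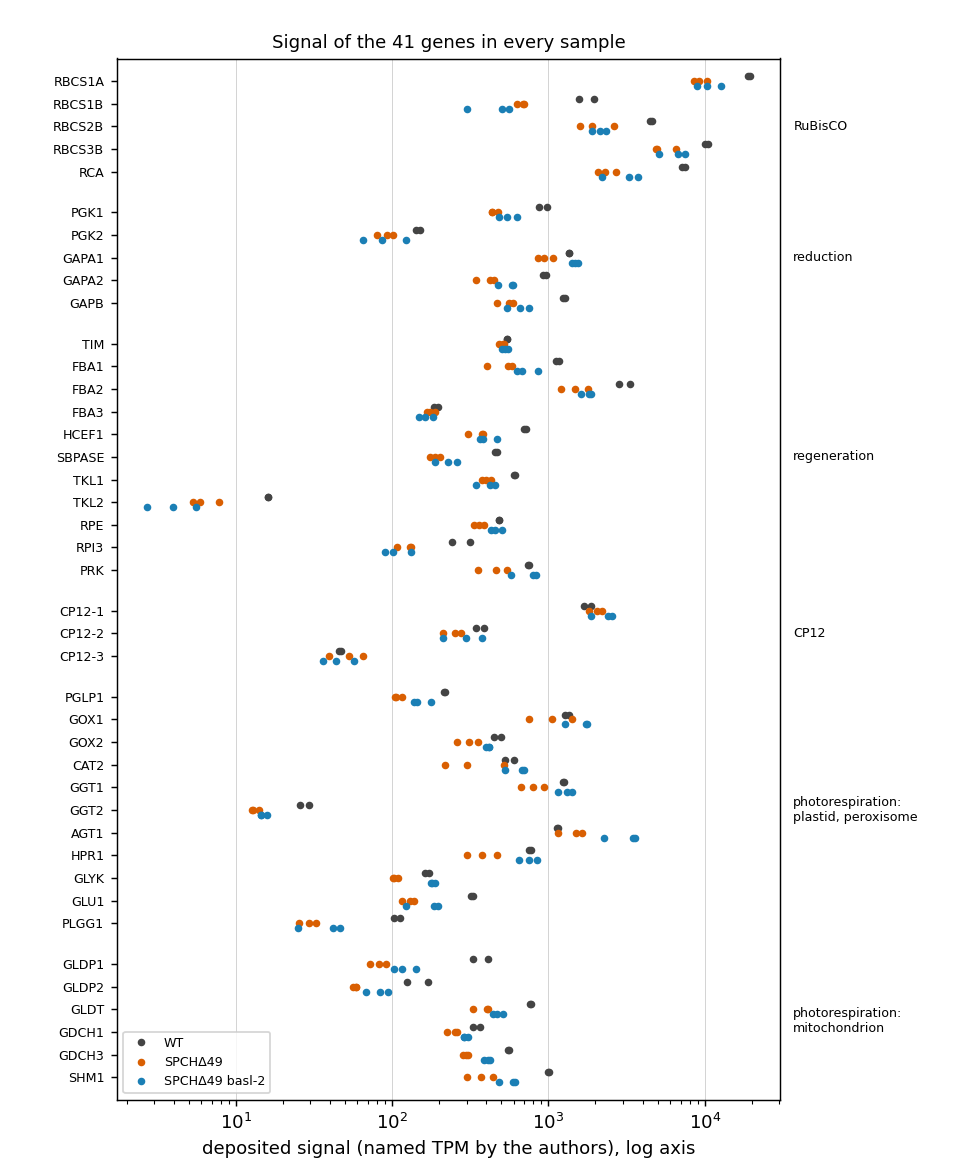
Deposited signal of each of the 41 genes (log axis) in the 2 WT samples (grey), the 3 SPCHΔ49 samples (orange) and the 3 SPCHΔ49 basl-2 samples (blue), ordered by role. Levels run from a few units for TKL2 to 19447 for RBCS1A, and AGT1 has its SPCHΔ49 basl-2 samples at 2262 to 3566 against 1136 and 1152 in WT.

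In photorespiration, PGLP1 (AT5G36700), PLGG1 (AT1G32080), GLU1 (AT5G04140) and GLYK (AT1G80380) of the plastid fell in SPCHΔ49, and the first 3 of these also in SPCHΔ49 basl-2. PGLP1, the phosphoglycolate phosphatase that opens the pathway, had 218 and 214 for WT, 105, 115 and 106 for SPCHΔ49, and 177, 137 and 144 for SPCHΔ49 basl-2. All 3 groups were separate, with log2 fold changes of -0.99 (adjusted p = 0.00133) and -0.51 (adjusted p = 0.018). The coding sequence of PGLP1 is identical over its 1089 bases to that of AT5G36790, so reads within it cannot be divided between them. Bases outside the coding sequence were not compared, so the split of signal between these genes is uncertain. Their summed signal was 276.5 and 275.5 for WT, 113.3 to 125.5 for SPCHΔ49, and 145.7 to 184.7 for SPCHΔ49 basl-2. PLGG1, the plastid membrane transporter of glycolate and glycerate, had 104 and 112 for WT, 29.2, 32.8 and 25.5 for SPCHΔ49, and 41.7, 24.8 and 46.5 for SPCHΔ49 basl-2. Its log2 fold changes of -1.86 (adjusted p = 0.00201) and -1.54 (adjusted p = 0.00415) held without any single library. GLU1, the ferredoxin-dependent glutamate synthase that takes up the released ammonia together with glutamine synthetase, fell by 1.33 and 0.96 (adjusted p = 0.00318 and 0.0103). GLYK, the glycerate kinase that returns carbon to the Calvin-Benson cycle, had 173 and 162 for WT, 109, 101 and 103 for SPCHΔ49, and 187, 178 and 179 for SPCHΔ49 basl-2. It fell by 0.68 in SPCHΔ49 (adjusted p = 0.00118), while in SPCHΔ49 basl-2 its samples lay just above WT with a log2 fold change of 0.12 (-0.07 to 0.31, adjusted p = 0.295). The 4 calls in SPCHΔ49 held without any single library. In SPCHΔ49 basl-2 those of PGLP1 and GLU1 were lost without either WT replicate (highest adjusted p 0.121 and 0.0795), and that of PGLP1 also with WT and SPCHΔ49 basl-2 alone in the fit (adjusted p = 0.051).

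Of the peroxisomal aminotransferases and reductase, HPR1 (AT1G68010), GGT1 (AT1G23310) and GGT2 (AT1G70580) fell in SPCHΔ49, while GGT2 fell and AGT1 (AT2G13360) rose in SPCHΔ49 basl-2. AGT1, the serine:glyoxylate aminotransferase, was the 1 member called higher against WT. It had 1136 and 1152 for WT, 1634, 1492 and 1153 for SPCHΔ49, and 3486, 3566 and 2262 for SPCHΔ49 basl-2. Every SPCHΔ49 basl-2 sample was above every other sample, and the lowest SPCHΔ49 sample was level with WT. Its log2 fold change was 0.30 (-0.27 to 0.88, adjusted p = 0.397) in SPCHΔ49 and 1.41 (0.83 to 1.99, adjusted p = 0.0053) in SPCHΔ49 basl-2. The second call was lost without WT replicate 1 or 2 (highest adjusted p 0.0538). Under quantile normalization AGT1 was also called higher in SPCHΔ49 (log2 fold change 0.57, adjusted p = 0.0254). HPR1, the hydroxypyruvate reductase that follows it, had 747 and 770 for WT, 470, 374 and 303 for SPCHΔ49, and 849, 754 and 649 for SPCHΔ49 basl-2. It fell by 1.01 in SPCHΔ49 (adjusted p = 0.00987) and had a log2 fold change of -0.02 (-0.49 to 0.44, adjusted p = 0.936; 0.03 under rescaling) in SPCHΔ49 basl-2, where its samples lay on both sides of WT. GGT1, the main glutamate:glyoxylate aminotransferase, had 1246 and 1256 for WT, 936, 793 and 671 for SPCHΔ49, and 1421, 1159 and 1311 for SPCHΔ49 basl-2. It fell by 0.66 in SPCHΔ49 (adjusted p = 0.0263) and had 0.05 (-0.35 to 0.44, adjusted p = 0.851; -0.10 under quantile normalization) in SPCHΔ49 basl-2. GGT2, its weakly expressed relative, was called in both overexpressors, with 25.9 and 29.4 for WT, 12.7, 14.0 and 12.8 for SPCHΔ49, and 15.9, 14.5 and 14.6 for SPCHΔ49 basl-2. It fell by 1.02 and 0.84 (adjusted p = 0.000529 and 0.00129), and both calls held without any single library.

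GOX1 (AT3G14420) and GOX2 (AT3G14415) encode glycolate oxidases, and CAT2 (AT4G35090) the leaf catalase that removes the hydrogen peroxide they form. GOX1 had 1283 and 1347 for WT, 1416, 1060 and 747 for SPCHΔ49, and 1747, 1762 and 1275 for SPCHΔ49 basl-2, with overlap among all 3 groups and no call (log2 fold changes -0.34, interval -0.99 to 0.31, and 0.26, interval -0.39 to 0.91). GOX2 fell by 0.62 in SPCHΔ49 (adjusted p = 0.0171) and had a log2 fold change of -0.20 (-0.53 to 0.13, adjusted p = 0.3) in SPCHΔ49 basl-2. These genes share 92.4% of aligned coding bases, so their split is uncertain. CAT2 had 603 and 528 for WT, 517, 304 and 216 for SPCHΔ49, and 700, 681 and 526 for SPCHΔ49 basl-2. Its SPCHΔ49 samples were spread widely and all lay below WT, and its log2 fold changes of -0.80 (-1.59 to -0.01, adjusted p = 0.12) and 0.16 (-0.63 to 0.95, adjusted p = 0.739) were not called. Without SPCHΔ49 replicate 1 the value of CAT2 in SPCHΔ49 was -1.14 with an adjusted p of 0.0165. The SPCHΔ49 calls of GOX2, GGT1 and HPR1 were lost without either WT replicate, those of GOX2 and GGT1 also without SPCHΔ49 replicate 2, and that of GGT1 also without SPCHΔ49 replicate 3 (highest adjusted p 0.142, 0.145 and 0.0857). Under quantile normalization GOX2 and GGT1 were not called (adjusted p = 0.0689 and 0.0643), and GGT1 was not called under rescaling (0.0565).

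The mitochondrial members were lower in SPCHΔ49 in 6 of 6 cases and in SPCHΔ49 basl-2 in 5 of 6. Glycine decarboxylase is built of P, T, H and L proteins, of which GLDP1 (AT4G33010) and GLDP2 (AT2G26080) encode the P protein that binds glycine and releases the carbon dioxide. GLDP1 had 411 and 330 for WT, 91.3, 82.0 and 71.8 for SPCHΔ49, and 143, 103 and 116 for SPCHΔ49 basl-2. The 3 groups were separate, and SPCHΔ49 had 22.0% and SPCHΔ49 basl-2 32.5% of the WT mean. Its log2 fold change of -2.17 (-2.58 to -1.75, adjusted p = 0.000175) in SPCHΔ49 was the lowest among the 41 members, and it was -1.62 (-2.03 to -1.2, adjusted p = 0.000713) in SPCHΔ49 basl-2, with both calls held without any single library. GLDP2 had 169 and 124 for WT, 58.5, 56.3 and 58.3 for SPCHΔ49, and 83.8, 68.5 and 94.1 for SPCHΔ49 basl-2, with log2 fold changes of -1.31 (adjusted p = 0.00149) and -0.82 (adjusted p = 0.00968). GLDT (AT1G11860), the T protein that passes the methylene group to folate, fell by 1.02 and 0.71 (adjusted p = 0.0015 and 0.00674). GDCH1 (AT2G35370) and GDCH3 (AT1G32470) encode the H protein, the lipoyl carrier of the complex. GDCH3 had 563 and 552 for WT, 297, 307 and 285 for SPCHΔ49, and 389, 425 and 411 for SPCHΔ49 basl-2, 3 separate groups with log2 fold changes of -0.91 (adjusted p = 0.000463) and -0.45 (adjusted p = 0.00922). GDCH1 fell by 0.49 in SPCHΔ49 (adjusted p = 0.013), and its value of -0.23 (-0.47 to 0.02) in SPCHΔ49 basl-2 had an adjusted p of 0.13. SHM1 (AT4G37930), the serine hydroxymethyltransferase that completes the formation of serine, had 997 and 1008 for WT, 441, 369 and 301 for SPCHΔ49, and 608, 486 and 594 for SPCHΔ49 basl-2. The 3 groups were again separate, and its log2 fold changes were -1.45 (adjusted p = 0.00128) and -0.84 (adjusted p = 0.0114). In SPCHΔ49 the call of GDCH1 was lost without either WT replicate (highest adjusted p 0.129) and under quantile normalization (adjusted p = 0.163), and the other 5 held without any single library. The SPCHΔ49 basl-2 calls of GLDT, GDCH3 and SHM1 were lost without either WT replicate and that of GLDP2 without WT replicate 1 (highest adjusted p 0.0634, 0.0857, 0.0826 and 0.0902).

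Set directly against each other, SPCHΔ49 basl-2 and SPCHΔ49 differed in 6 members, all higher with basl-2, against 2.05% of all genes called higher and 3.36% called lower (5.41% in either direction). The reverse separation, with SPCHΔ49 the higher, held for 1 member, RBCS1B, against 15.0% of all genes. The 6 were AGT1 with a log2 difference of 1.11 (0.59 to 1.62, adjusted p = 0.0372), HPR1 with 0.99 (0.57 to 1.4, adjusted p = 0.0268), GLYK with 0.80 (0.62 to 0.97, adjusted p = 0.00407), GGT1 with 0.70 (0.35 to 1.06, adjusted p = 0.0448), GAPA1 with 0.64 (0.35 to 0.92, adjusted p = 0.0319) and GDCH3 with 0.46 (0.27 to 0.65, adjusted p = 0.025). By role, 4 of the 6 belong to the 11 plastid and peroxisome members of photorespiration. Samples of the 2 groups did not overlap, with SPCHΔ49 basl-2 the higher, for 20 members, against 10.7% of all genes, and 14 of these 20 were among the 17 photorespiratory members. The median log2 difference was 0.49 over the 17 photorespiratory members and 0.21 over the other 24, with -0.027 over all genes. The sign of the second median depended on the scaling: under quantile normalization the medians were 0.36 and -0.11, and members below 0 numbered 14, up from 6, all of them among the other 24. RBCS1A, RBCS2B, RBCS3B, RCA, FBA2, TKL1, TIM and CP12-1 turned negative in that setting, and TKL1 and TIM also under rescaling, none of these differences being called. The second median was 0.12 under rescaling, 0.064 without both overexpressor samples numbered 3, and 0.32 without SPCHΔ49 basl-2 replicate 2. Among related lists described below, 20 other photorespiration genes had a median log2 difference of 0.10, with 8 below 0. For 42 nuclear light-harvesting and photosystem genes it was 0.38, with 1 below 0, and neither list had a gene called. A median above that of all genes was thus not particular to the photorespiratory members. The call of GLYK held without any single library. Each of the other 5 was lost without either WT replicate, SPCHΔ49 replicate 2 or 3, or SPCHΔ49 basl-2 replicate 1 or 2, those of AGT1 and GDCH3 also without SPCHΔ49 replicate 1, and that of GGT1 also without SPCHΔ49 basl-2 replicate 3, with a highest adjusted p of 0.135 for AGT1, 0.123 for HPR1, 0.166 for GGT1, 0.148 for GAPA1 and 0.107 for GDCH3. With only these 2 groups in the fit GLYK was the 1 member called. Of the 6, GAPA1, GGT1 and GDCH3 were not called under quantile normalization (adjusted p = 0.193, 0.219 and 0.0697) or without both overexpressor samples numbered 3 (0.0837, 0.109 and 0.0802), and GGT1 was not called under rescaling (0.0564). A difference was called for PRK without SPCHΔ49 basl-2 replicate 3 (0.87, adjusted p = 0.0441) and for CAT2 without SPCHΔ49 replicate 1 (1.296, adjusted p = 0.0318).

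The summed signal gives the weight of the strongly expressed genes, and its differences between groups are given as values without a test. The 41 members together made up 6.70% ± 0.19 of the library total in WT (SD, n = 2), 3.93% ± 0.26 in SPCHΔ49 (SD, n = 3) and 4.33% ± 0.55 in SPCHΔ49 basl-2 (SD, n = 3). The Calvin-Benson enzymes without RuBisCO, activase and CP12 had 54.3% of the WT sum in SPCHΔ49 and 68.6% in SPCHΔ49 basl-2. The plastid and peroxisome members of photorespiration had 74.4% and 131.5%, and the mitochondrial members 44.9% and 60.8%. The sum of 131.5% was led by AGT1, with means of 1144 in WT and 3104 in SPCHΔ49 basl-2. It is no rise of these 11 members as a group. In SPCHΔ49 basl-2, 4 of them were called lower and 1 higher, with a median log2 fold change of -0.02. The ratio of the summed photorespiratory to the summed Calvin-Benson signal was 0.73 and 0.75 for WT, 0.94, 0.88 and 0.80 for SPCHΔ49, and 1.2, 1.29 and 1.01 for SPCHΔ49 basl-2, again 3 separate groups. The separation of SPCHΔ49 from WT rested on AGT1: without it the ratio was 0.65 and 0.66 for WT, 0.73, 0.67 and 0.62 for SPCHΔ49, which overlap, and 0.83, 0.86 and 0.75 for SPCHΔ49 basl-2, still above all others. Within photorespiration, the ratio of HPR1 to GLDP1 was 1.82 and 2.33 for WT, 5.15, 4.56 and 4.22 for SPCHΔ49, and 5.93, 7.34 and 5.59 for SPCHΔ49 basl-2.

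The counts of lower members were also taken by letters in the upstream window, as a description. Members counted without a box lack it in that window only. In SPCHΔ49, 7 of the 7 members with a G-box were lower, as were 25 of the 34 without one, and 18.8% of the 1395 listed genes with a G-box were called lower. With an I-box, 4 of 6 members were lower, and 28 of the 35 without one, beside 17.1% of the 2356 listed genes with an I-box. In SPCHΔ49 basl-2 the counts were 5 of 7 with a G-box and 18 of 34 without, and 4 of 6 with an I-box and 19 of 35 without, beside 22.6% of the listed genes with a G-box and 19.9% of those with an I-box.

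Further genes of the same pathways were lower more often than higher. Over all genes 17.3% were lower and 9.9% higher in SPCHΔ49, and 21.6% lower and 12.6% higher in SPCHΔ49 basl-2. The counts of higher genes in the lists below do not exceed these shares. Of 19 other Calvin-Benson, RuBisCO assembly and redox genes, 15 were lower and 1 higher in SPCHΔ49 (median log2 fold change -0.85), and 11 were lower and 1 higher in SPCHΔ49 basl-2 (median -0.54). NTRC, the plastid NADPH-thioredoxin reductase, fell by 0.94 and 0.83 (adjusted p = 0.000821 and 0.00146). CPN60B2, a subunit of the plastid chaperonin that folds RuBisCO, fell by 1.53 and 2.06 (adjusted p = 0.00842 and 0.00222), and CPN60A1, another subunit, by 0.99 and 1.38 (adjusted p = 0.00971 and 0.0022). RBCX1, a RuBisCO assembly chaperone, was the gene that rose, with 2.0 and 3.55 for WT, 11.5, 17.6 and 14.8 for SPCHΔ49, and 22.2, 20.1 and 14.8 for SPCHΔ49 basl-2. Its log2 fold changes on the (signal + 1) scale were 2.06 (adjusted p = 0.00141) and 2.42 (adjusted p = 0.00067). Of 20 other photorespiration genes, 9 were lower and 1 higher in SPCHΔ49 (median -0.61) and 11 lower and 2 higher in SPCHΔ49 basl-2 (median -0.42). GDCH2, another H protein gene, fell by 1.52 and 1.72 (adjusted p = 0.000193 and 0.000113), and MTLPD1, the mitochondrial L protein, by 0.94 and 0.60 (adjusted p = 0.00127 and 0.00813). GLN2, the plastid glutamine synthetase, fell by 1.02 and 0.72 (adjusted p = 0.00255 and 0.00926). The genes that rose were HAOX2, and in SPCHΔ49 basl-2 also HAOX1, which encode hydroxy-acid oxidases related to glycolate oxidase. HAOX2 had log2 fold changes of 0.53 (adjusted p = 0.029) and 0.61 (adjusted p = 0.0151), and HAOX1 had 0.79 in SPCHΔ49 basl-2 (adjusted p = 0.0393). Without a WT library the calls of CPN60A1 and CPN60B2 in SPCHΔ49, of MTLPD1 and GLN2 in SPCHΔ49 basl-2 and of both HAOX genes were lost, with a highest adjusted p of 0.0925, 0.0861, 0.0787, 0.0831, 0.205 for HAOX2 and 0.186 for HAOX1. The HAOX calls were also lost without some overexpressor libraries, which were SPCHΔ49 replicates 1 and 2 for HAOX2 in SPCHΔ49, and SPCHΔ49 replicate 2 and SPCHΔ49 basl-2 replicates 1 and 3 for HAOX1.

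Fewer genes of the light reactions were called. Of 42 nuclear light-harvesting and photosystem genes, 10 were lower and 0 higher in SPCHΔ49 (median log2 fold change -0.36). In SPCHΔ49 basl-2, 5 were lower and 1 higher (median -0.044). The lower genes made up 23.8% and 11.9% of the list, beside 17.3% and 21.6% of all genes. Over all genes 9.9% and 12.6% were higher. The counts are near or below these shares and are no result about the list. PSAH2, a photosystem I subunit, fell by 1.17 and 1.1 (adjusted p = 0.00144 and 0.00201), and LHCA6, an antenna protein of photosystem I, by 1.46 and 0.98 (adjusted p = 0.000936 and 0.00493). PSBS, which triggers the dissipation of excess light energy, fell by 1.22 and 1.01 (adjusted p = 0.00299 and 0.00597). In SPCHΔ49 basl-2 the call of LHCA6 was lost without WT replicate 2 and that of PSBS without WT replicate 1 (highest adjusted p 0.0577 and 0.0629). The summed signal of the 42 genes was 190137 and 205923 for WT, 143516 to 214231 for SPCHΔ49, and 184817 to 275126 for SPCHΔ49 basl-2. Both overexpressors thus overlapped WT in this sum. Their means were 87.8% and 119.7% of the WT mean, against 52.3% and 65.8% for the 41 members. Whether the lists differ was not tested.

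**Figure D4:**
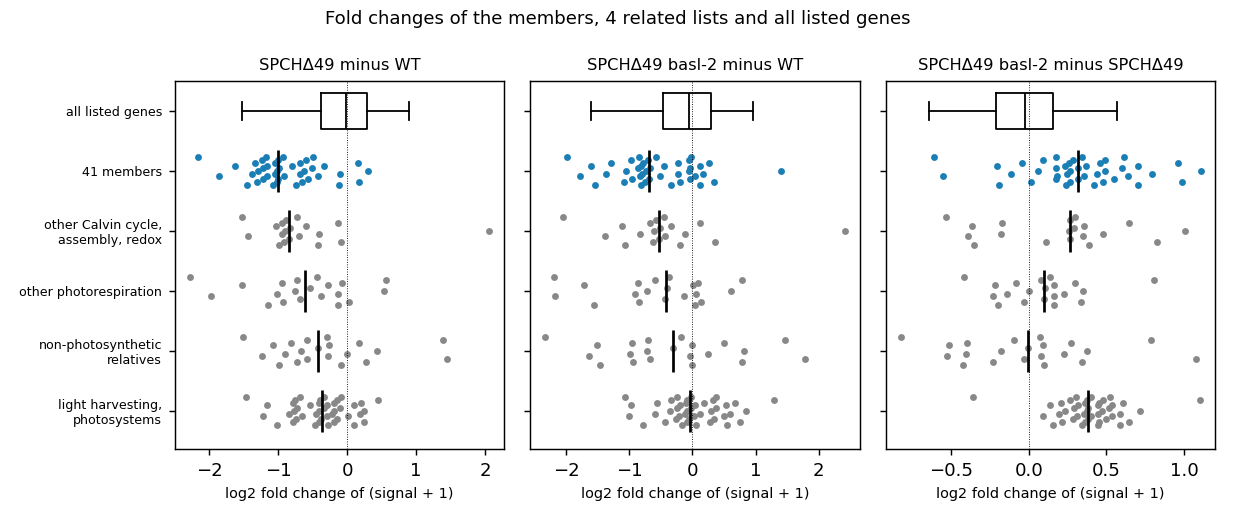
Log2 fold change of (signal + 1) in the 3 comparisons for the 41 members (blue), for 4 related lists (grey) and for all 18855 genes (box with median and quartiles, whiskers spanning the middle 90% of genes). Points are genes and vertical lines are medians. The member median is -1.01, -0.68 and 0.32 in the 3 comparisons, while that of all genes is -0.010, -0.055 and -0.027.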

How the data were processed

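Whole-seedling RNA of 8 samples was sequenced. Per the submitters' processing notes the tools named are Trimmomatic 0.38, kallisto 0.44.0 and sleuth; the build and the step from transcripts to genes are not stated by the sources at hand. The deposited signal per gene is named TPM per the file headers, but its sums differ between libraries and pass the nominal TPM total in some, so it was rescaled in a step that is not stated and was treated as a length-scaled signal with unknown depth. The tests had been laid out for TPM and were kept. Every listed gene reached 1 in all samples of at least 1 genotype.

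The signal was analysed as log2(signal + 1) with limma 3.58.1 in R 4.3.3, with 1 mean per genotype over the 8 samples, a variance trend and Benjamini-Hochberg adjustment over 18855 genes at 0.05. A filter (1 or more in 2 samples) removed 0 genes. Shares were compared by exact permutation tests (scipy 1.17.1). The script was tested on simulated data. The alternatives were pseudocounts of 0.1 and 5, no filter, a mean of at least 5, quantile normalization, rescaling, no trend, robust variances, a replicate block, fits of 2 groups and each library left out. Promoters and coding sequences came from RefSeq TAIR10.1, with coding sequences aligned in Biopython 1.88. Members and lists were chosen with earlier results of these data known. The members were named throughout, and of each other list the 3 genes with the lowest p in each direction could be named. CASP2, KAT1, TGG1, RBCL and AT5G36790 were named after their values were seen.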

Additional observations from a re-analysis of the deposited data

How the results depend on the processing

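No member log2 fold change that was called reversed under any alternative. Members called higher in SPCHΔ49 numbered 2 under quantile normalization (CP12-1 and AGT1), and 1 (AGT1) with the replicate block and 1 (AGT1) without both overexpressor samples numbered 3, a setting chosen after seeing the data. In SPCHΔ49 basl-2 the same block and omission each gave 2 (AGT1 and CP12-1). Members higher in SPCHΔ49 basl-2 than in SPCHΔ49 numbered 3 under quantile normalization, 11 with the replicate block and 1 with only these groups in the fit; calls over all genes there fell from 1020 to 671 with a mean of at least 5 and to 495 with only these groups. Each library left out in turn gave 16 to 33 members lower in SPCHΔ49, 8 to 23 lower and 0 to 1 higher in SPCHΔ49 basl-2, and 1 to 6 higher between the overexpressors; calls over all genes were 1121 to 5636, 1624 to 7052 and 151 to 1242. Leaving out 1 library moved the RBCS1A share difference over -1.52 to 0.92, -0.35 to 1.49 and -0.58 to 1.87 points. Replicate numbers did not pair the samples. Deviations from the group mean had correlations of -0.17, -0.09 and 0.76 between SPCHΔ49 and SPCHΔ49 basl-2 samples of the same number. Some pairs of unlike number were as strong. SPCHΔ49 replicate 1 had 0.77 with SPCHΔ49 basl-2 replicate 2 and -0.73 with its replicate 3. SPCHΔ49 replicate 3 had -0.71 with SPCHΔ49 basl-2 replicate 2. Deviations within a group sum to 0 for each gene, so these correlations are not independent, and the negative ones partly follow from the positive ones. The overexpressor samples thus share variation that the numbers do not follow, and its source was not tested. Quantile normalization and rescaling gave 26 and 26 lower members for SPCHΔ49, 24 and 23 for SPCHΔ49 basl-2; the uncalled values of TIM and FBA3 in SPCHΔ49 changed sign under both. Rescaling moved the median of all genes to 0.12 in SPCHΔ49 and to -0.10 between the overexpressors. Of all genes called, 36.5% were higher in SPCHΔ49 (50.7% quantile, 56.7% rescaled), 36.9% in SPCHΔ49 basl-2 (49% and 44.4%) and 37.9% between the overexpressors (35.8% and 23.3%). The depth limit is unknown, and the 2 WT samples bound the precision of every comparison with WT.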

Other observations

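The cytosolic and other non-photosynthetic relatives of the members were also lower more often than higher, though some rose. Of 21 such genes, 9 were lower and 2 higher in SPCHΔ49 (median log2 fold change -0.42), and 10 were lower and 3 higher in SPCHΔ49 basl-2 (median -0.31). Over all genes 17.3% were lower and 9.9% higher for SPCHΔ49, and 21.6% lower and 12.6% higher for SPCHΔ49 basl-2. CAT1, a catalase other than the leaf form, had 23.8 and 21.8 for WT, 61.6, 63.4 and 67.4 for SPCHΔ49, and 85.7, 64.5 and 97.4 for SPCHΔ49 basl-2. It rose by 1.45 and 1.79 on the log2 scale (limma adjusted p = 0.000903 and 0.000344), and both calls held without any single library. RPEc2, a cytosolic epimerase, had 0.44 and 0.81 (limma adjusted p = 0.00873 and 0.000552), and its SPCHΔ49 call was lost without either WT replicate (highest adjusted p 0.106). cFBP, the cytosolic fructose-1,6-bisphosphatase of sucrose synthesis, had 95 and 100.3 for WT, 58.5, 70.3 and 66.5 for SPCHΔ49, and 161, 129 and 128 for SPCHΔ49 basl-2. It fell by 0.58 in the first (limma adjusted p = 0.0171) and had a log2 fold change of 0.50 in the second (limma adjusted p = 0.0253). Without either WT replicate both calls were lost (highest adjusted p 0.133 and 0.159), and the second also without SPCHΔ49 basl-2 replicate 1. The plastid glycolytic dehydrogenases GAPCP1 and GAPCP2 had log2 fold changes of -1.51 and -0.99 in SPCHΔ49 and of -2.34 and -1.51 in SPCHΔ49 basl-2 (limma adjusted p = 0.000775, 0.00283, 0.000103 and 0.000402), with the GAPCP2 call in SPCHΔ49 lost without WT replicate 2 (adjusted p = 0.0505).

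Of 15 regulators of nuclear photosynthesis genes, 4 were lower and 0 higher in SPCHΔ49 and 3 lower and 1 higher in SPCHΔ49 basl-2. The shares of all genes were 17.3% lower and 9.9% higher in SPCHΔ49, and 21.6% lower and 12.6% higher in SPCHΔ49 basl-2. The SPCHΔ49 basl-2 counts do not exceed these shares. In SPCHΔ49, 26.7% of so short a list was lower, which is near the share. Neither set of counts is a result about the regulators as a list. HYH, a bZIP factor of light signalling related to HY5, had 23.2 and 16.3 for WT, 5.68, 6.66 and 4.82 for SPCHΔ49, and 7.02, 7.84 and 6.86 for SPCHΔ49 basl-2. It fell by 1.62 and 1.31 (limma adjusted p = 0.000826 and 0.00207), and both calls held without any single library. HY5 itself fell by 0.80 in SPCHΔ49 (limma adjusted p = 0.0191) and had a log2 fold change of -0.20 (limma adjusted p = 0.438) in SPCHΔ49 basl-2. Its call was lost without WT replicate 1 or 2 or SPCHΔ49 replicate 2 (highest adjusted p 0.120). The clock factor CCA1 fell by 0.89 and 0.68 (limma adjusted p = 0.0126 and 0.0289), and both calls were lost without either WT replicate or, in SPCHΔ49 basl-2, without SPCHΔ49 replicate 2 or SPCHΔ49 basl-2 replicate 2 or 3 (highest adjusted p 0.0961 and 0.142). The time of day of harvest is not given in the labels.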
